A study of Homo sapiens and Mus musculus with 22 samples.

Results

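RNA of U2OS cells, a human osteosarcoma line, was compared between 2 SETDB1 knockouts (KO1 and KO2) and wild type (WT). Each of these 3 groups had 2 poly(A)-selected libraries, so the comparison rested on 6 of the 22 samples of the series. KO1 and KO2 carry the SETDB1 KO genotype and all 6 libraries carry the treatment label MOCK. The labels do not say whether a knockout is 1 clone, how it was made, or what the mock cells received. Genes entered the tests when their FPKM (fragments scaled by transcript length and library size) reached 1 in at least 2 of the 6 libraries, which left 12616 of 24549 gene symbols. At that limit, FLVCR1-AS1 was just inside with 1.005 FPKM in its second highest library and STK32C was just outside with 0.999975 FPKM. The remaining 16 samples are 8 other RNA samples, of which 4 are used at the end, and 8 chromatin samples, which were not analysed here.

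SETDB1 is a histone methyltransferase that places trimethylation on lysine 9 of histone H3 (H3K9me3), a mark of silent chromatin. It works with the scaffold TRIM28, which zinc finger proteins with a KRAB domain bring to their DNA targets, and with ATF7IP, which stabilises it in the nucleus. The mark is known from other cells on retroelements, on the clusters of zinc finger genes themselves, on clustered protocadherins and on some germline and imprinted genes. A loss of SETDB1 is known for raising RNA from such loci.

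The 6 libraries were alike in the deposited values. FPKM summed to between 478829.9 and 527493.3 and between 12300 and 12423 genes were at 1 FPKM or more. FPKM alone leaves the absolute depth unknown. The steps between low values gave relative depths, with KO1 at 1.13 times the reads of KO2 and 1.10 times those of WT in replicate 1, and at 1.38 and 1.27 times in replicate 2. Of 8 mesenchymal and bone markers, 6 were at 1 FPKM or more and summed to between 1798.6 and 1942.1 FPKM in the knockouts and between 1985.3 and 2034.2 FPKM in WT, while TWIST1 was at 0 and COL1A2 at no more than 0.154 FPKM in each library. Markers of immune, hepatic, muscle and endothelial cells summed to under 0.5 FPKM per library. Both neuronal markers reached 1 FPKM in a library and summed to between 4.16 and 5.17 FPKM in the knockouts and between 5.03 and 5.04 FPKM in WT. The 4 epithelial markers summed to between 8.49 and 12.9 FPKM in the knockouts and between 8.91 and 16.2 FPKM in WT.

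SETDB1 RNA itself was lower but present. It had 5.90 and 7.03 FPKM in KO1 and 6.89 and 7.35 FPKM in KO2, against 9.98 and 9.32 FPKM in WT. Every knockout library was below both WT libraries, with a difference of -0.45 (SE 0.109) on the log2(FPKM + 1) scale used throughout for differences. The adjusted p was 0.0433 in the mean of the knockouts, 0.0569 in KO1 and 0.203 in KO2 (limma). The call was lost without KO1 replicate 1 (adjusted p = 0.136), KO2 replicate 1 (0.0847), KO2 replicate 2 (0.0733), WT replicate 1 (0.255) or WT replicate 2 (0.161). FPKM of a whole gene does not show a small deletion, so this value says little of the protein.

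The difference was tested with limma, a linear model per gene with a moderated variance, and a gene was called at an adjusted p below 0.05. In the mean of the knockouts against WT, 407 genes were called (3.23% of all tested). Of these, 309 were higher (2.45%) and 98 were lower (0.777%). KO1 alone against WT had 304 called (2.41%), with 239 higher (1.89%) and 65 lower (0.515%). KO2 alone had 307 called (2.43%), with 252 higher (2.0%) and 55 lower (0.436%). Both share the WT libraries. Without WT replicate 1 the mean had 214 higher and 62 lower, and without WT replicate 2 it had 246 and 37. The genes nearest the threshold were PCDHB14 (adjusted p = 0.0484) just inside and TMEM52 (0.0513) just outside on the higher side, and RSG1 (0.0469) and ARHGAP28 (0.0504) on the lower side. The labels do not say that libraries of a group came from separate cultures, so the p-values measure the spread between these libraries.

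The genes called higher were mostly weakly expressed in WT. Their median level was 5.30 FPKM in the knockouts and 1.95 FPKM in WT, against 11.4 and 11.3 FPKM over all genes tested. Both WT libraries were below 1 FPKM for 80 of the 309, which entered the test only through the knockouts. The genes called lower had a median of 6.11 FPKM in the knockouts and 9.74 FPKM in WT. Their differences were smaller, between -1.51 and -0.38 with a median of -0.59, against 0.38 to 3.55 with a median of 0.90 for the genes called higher. The median difference over all genes was -0.01. In bulk RNA, more cells with a transcript and more transcript per cell cannot be told apart.

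**Figure D1:**
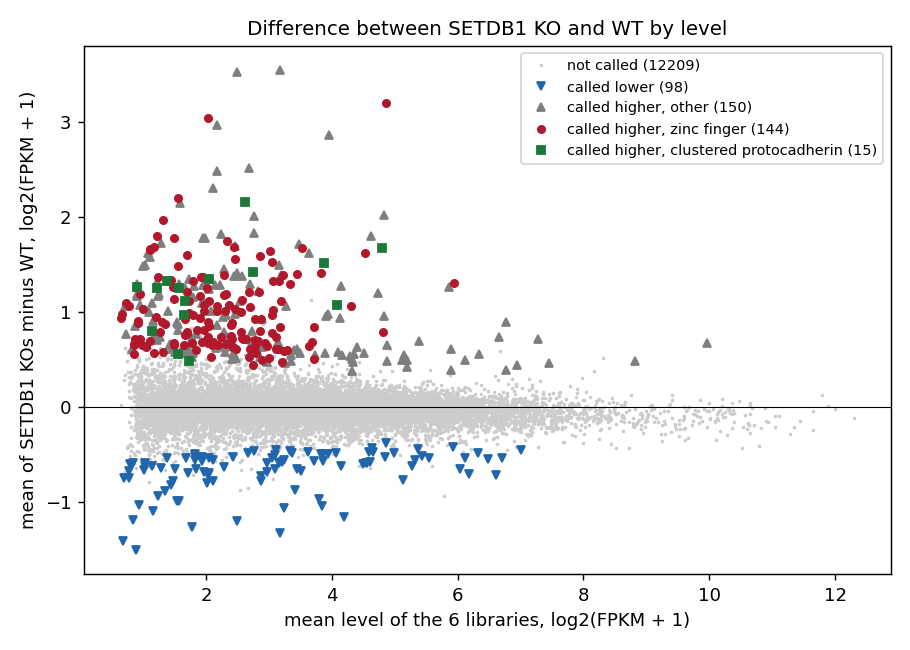
Each point is 1 of the 12616 genes tested, with its mean level in the 6 libraries on the x axis and the difference of the SETDB1 knockouts from WT on the y axis, both as log2(FPKM + 1). The 309 genes called higher reach 3.55, and the 98 called lower reach -1.51.

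SETDB1 and genes of its partners were looked at next. Of 19 tested, 3 were higher (15.8%, against 2.45% of all genes). SETDB1 itself was the only member lower (5.26%, against 0.777%), and the list median was 0.01. ATF7IP, the partner that keeps SETDB1 stable, had 34.3 and 31.7 FPKM in KO1 and 30.3 and 40.9 FPKM in KO2, against 14.3 and 14.2 FPKM in WT. The groups did not overlap, and the difference was 1.20 (SE 0.116, adjusted p = 5.54e-05). Its relative ATF7IP2 had 2.79 and 3.54 FPKM in KO1 and 3.45 and 3.38 FPKM in KO2, against 1.17 and 1.92 FPKM in WT (difference 0.77, adjusted p = 0.0111). That call was lost without WT replicate 1 (difference 0.55, adjusted p = 0.159).

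ZNF274, a zinc finger protein known to bring SETDB1 and TRIM28 to the ends of other zinc finger genes, was the third. It had 17.2 and 18.2 FPKM in KO1 and 19.3 and 19.8 FPKM in KO2, against 5.70 and 7.11 FPKM in WT (difference 1.41, SE 0.106, adjusted p = 8.48e-06). TRIM28 had 142 and 128 FPKM in KO1 and 142 and 124 FPKM in KO2, against 145 and 127 FPKM in WT, and its difference of -0.02 (SE 0.104) did not pass.

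The HUSH complex, which recruits SETDB1 and MORC2 to retroelements, had no called member. FAM208A, its scaffold TASOR, had 20.3 and 20.6 FPKM in KO1 and 17.3 and 21.4 FPKM in KO2, against 14.6 and 14.9 FPKM in WT (difference 0.40, adjusted p = 0.0639), and MORC2 differed by 0.33 (adjusted p = 0.112). The groups of both genes did not overlap. MPHOSPH8 (0.01), PPHLN1 (-0.04) and FAM208B (0.26), a relative of FAM208A, did not pass either. Neither did the heterochromatin readers CBX1 (-0.14), CBX3 (-0.13) and CBX5 (-0.15), the chromatin assembly subunits CHAF1A (-0.10) and CHAF1B (-0.03), MBD1 (0.14), the modifier gene SUMO2 (0.05), or UBE2E1 (-0.05), which ubiquitinates SETDB1. Of the other enzymes of the chromatin, 0 of 8 further H3K9 methyltransferases, 0 of 10 H3K9 demethylases, 0 of 15 DNA methylation genes and 0 of 28 Polycomb genes were called. Of all genes 3.23% were called, so lists this short hold few calls in any case.

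Zinc finger genes made up the largest group. Most encode DNA-binding repressors, and symbols of the ZNF, ZFP, ZSCAN, ZKSCAN, ZIK and ZIM series were counted. Of 476 tested, 144 were higher (30.3%, against 2.45% of all genes) and 1 was lower, ZNF185, and the median difference was 0.23. For 38 of the 144 both WT libraries were below 1 FPKM. ZNF185 encodes an actin-associated LIM domain protein and not a KRAB repressor (difference -0.43, adjusted p = 0.0252), and the count lower was 0 without KO1 replicate 2, KO2 replicate 1 or either WT library. On chromosome 19, 99 of 212 were higher and 0 lower, with a median of 0.50. On the other chromosomes, 45 of 264 were higher, with a median of 0.09, and without WT replicate 1 that count was 29. Without the filter on low values, 89 zinc finger genes were higher. Many of these genes are near-identical copies, and reads shared between copies make the value of a single member uncertain.

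ZFP30, a KRAB zinc finger gene on chromosome 19, had the largest difference among the named zinc finger genes. It had 62.0 and 71.5 FPKM in KO1 and 48.6 and 60.9 FPKM in KO2, against 5.90 and 5.40 FPKM in WT (difference 3.20, SE 0.111, adjusted p = 1.64e-08). The lowest knockout library stood far above both WT libraries. ZNF780B, on the same chromosome, had 16.03 and 18.4 FPKM in KO1 and 13.7 and 15.96 FPKM in KO2, against 4.22 and 4.36 FPKM in WT (difference 1.68, adjusted p = 2.91e-06).

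Other zinc finger genes were at or near 0 in WT. ZNF733P, a pseudogene on chromosome 7, had 7.29 and 7.65 FPKM in KO1 and 6.05 and 8.17 FPKM in KO2, and was listed at 0 in both WT libraries. Its neighbour ZNF479 had 3.78 and 3.18 FPKM in KO1 and 2.39 and 2.48 FPKM in KO2, and was also listed at 0 in both WT libraries. ZNF716, between those 2 in the gene order, had 2.57 and 3.08 FPKM in KO1 and 1.81 and 2.77 FPKM in KO2, against 0.0273 and 0 FPKM in WT. All 3 were called, with no fold given where WT is at 0. ZNF578 on chromosome 19 had 3.50 and 4.11 FPKM in KO1 and 3.46 and 4.54 FPKM in KO2, against 0.0628 and 0.0612 FPKM in WT (difference 2.20, SE 0.136, adjusted p = 2.5e-06).

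**Figure D2:**
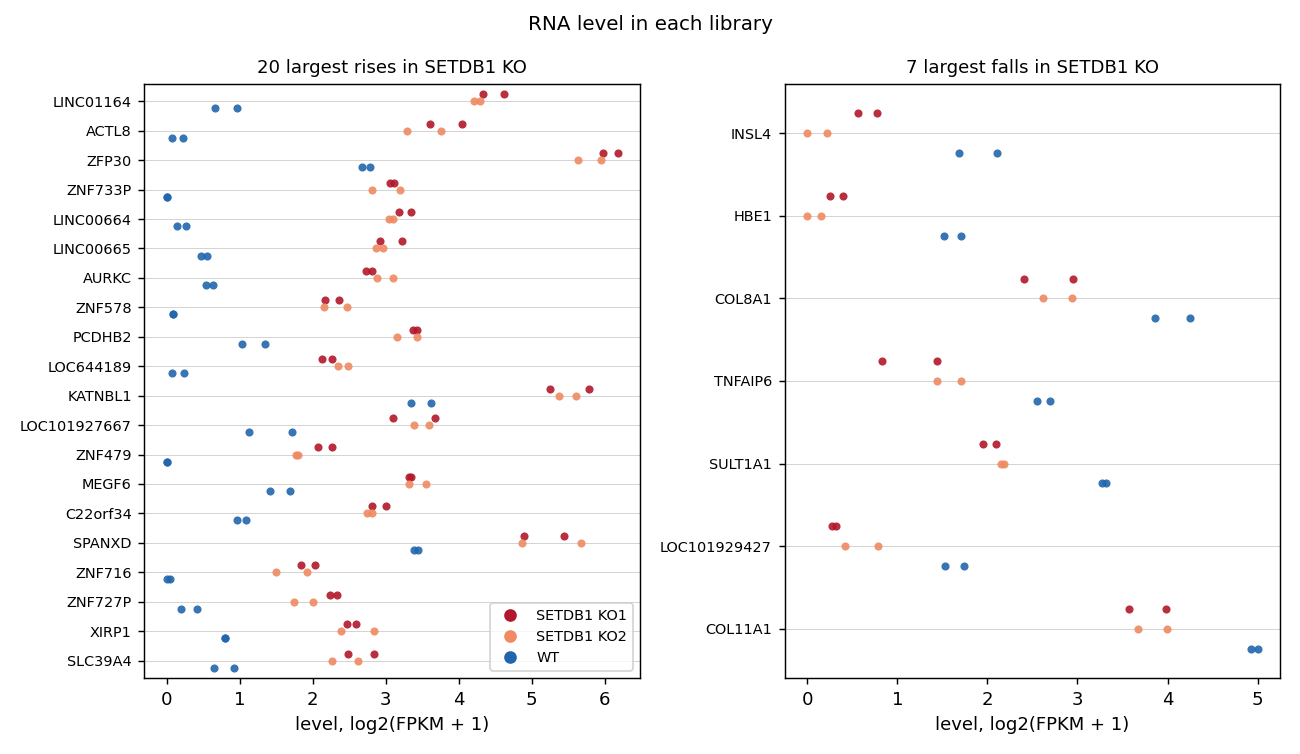
Each point is 1 library, with its level as log2(FPKM + 1) on the x axis, for the 20 genes with the largest rises and the 7 with the largest falls that were called in the mean of the knockouts and in each knockout. The knockout libraries stand apart from the WT libraries in each row, from INSL4 and HBE1 near 0 in the knockouts to ZFP30 at 48.6 to 71.5 FPKM.

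Along chromosome 19 the genes called higher lay side by side. The chromosome held 924 tested genes, of which 13.7% were higher. Of its 712 genes outside the counted zinc finger symbols, 28 were higher (3.93%), the zinc finger gene HKR1 among them. Of these 28, 12 lay in no stretch of called neighbours as defined further on. Zinc finger genes were grouped into clusters wherever fewer than 3 other tested genes lay between them, and 9 clusters had at least 5 tested members. Genes below the filter in WT and knockouts alike are absent from these counts. Their counts ranged widely. In the cluster of ZNF565 to ZNF573, 22 of 27 were higher with a median of 0.92, in that of ZNF101 to ZNF675 10 of 13 with 0.90, and in that of ZNF175 to ZNF331 28 of 39 with 0.68. The clusters of ZNF414 to ZNF846 (6 of 12), ZNF787 to ZNF446 (21 of 54) and ZNF653 to ZNF791 (8 of 22) had medians between 0.44 and 0.46. In the cluster of ZNF283 to ZNF180 only 1 of 16 was higher (median 0.14), and in those of ZNF302 to ZNF792 and ZNF628 to ZNF580 0 of 5 and 0 of 7 were (medians 0.25 and 0.09). The differences between clusters were not tested.

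**Figure D3:**
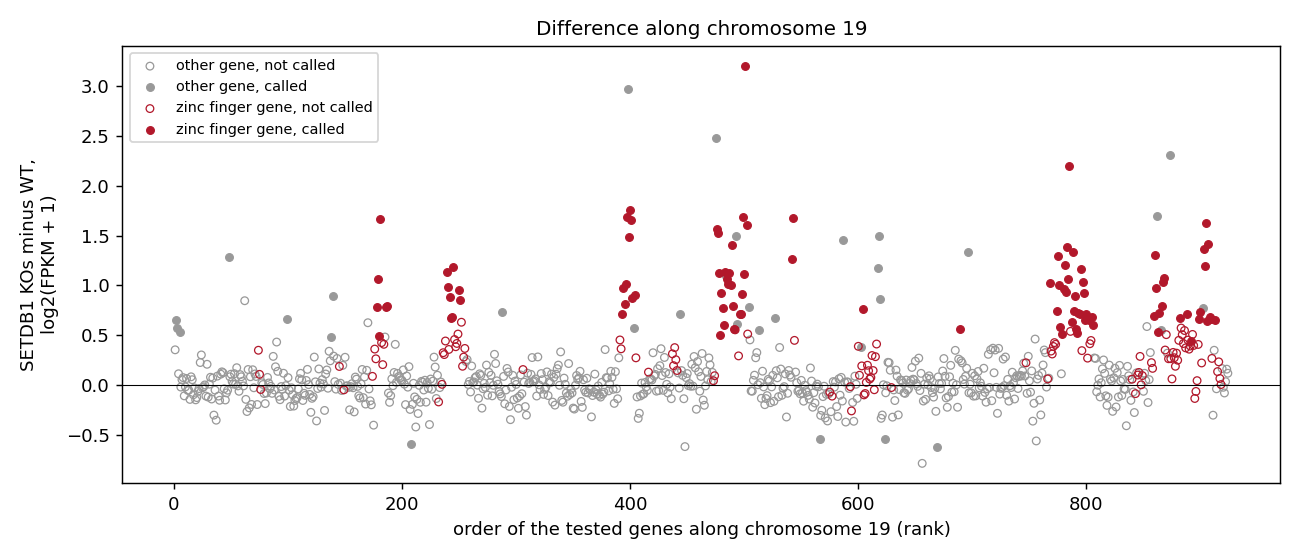
Tested genes of chromosome 19 are placed by their rank in gene order on the x axis, with the difference of the SETDB1 knockouts from WT as log2(FPKM + 1) on the y axis. Filled points are called, and the red zinc finger genes stand up in blocks. Most genes outside the counted zinc finger symbols lie near 0. Of all such genes 28 are called higher, such as ATP8B3 (1.29), PSG9 (1.45) and LMTK3 (1.33) outside the blocks.

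The promoters of the genes were read from RefSeq (GRCh38.p14, 250 bases before to 50 after each start). An entry was matched for 9955 of the tested genes, among them 121 zinc finger genes called higher and 278 not called. The median number of CpG dinucleotides per 300 bases was 20 in the called ones and 23 in the others, against 27 over all tested genes. The 8 bases TCCAATCA, which hold the CCAAT box sequence, stood in 24 of 121 promoters of called zinc finger genes (19.8%), in 22 of 278 of those not called (7.91%) and in 165 of all 9955 (1.66%), counting both strands (TGATTGGA on the other). Over all 27305 RefSeq promoters the share was 1.61%. The 8 bases were chosen after these promoters were seen, and copies of one ancestral gene share sequence, so the shares are a description. Such windows are shown for 6 genes that were higher in the knockouts, with the 8 bases in capitals and 16 bases on each side, read on the strand of the gene.
ZNF716, chr7:57450078-57450117, plus strand: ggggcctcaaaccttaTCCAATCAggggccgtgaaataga
ZNF736, chr7:64313914-64313953, plus strand: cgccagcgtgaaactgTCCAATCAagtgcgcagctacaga
ZNF100, chr19:21767608-21767647, minus strand: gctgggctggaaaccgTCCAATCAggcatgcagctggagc
ZNF493, chr19:21397032-21397071, plus strand: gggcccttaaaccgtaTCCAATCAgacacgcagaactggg
ZNF208, chr19:22011002-22011041, minus strand: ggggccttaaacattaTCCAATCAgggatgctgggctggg
ZNF429, chr19:21505556-21505595, plus strand: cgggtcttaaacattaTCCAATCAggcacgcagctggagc

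These 6 genes lie in 2 stretches of neighbours, on chromosome 7 and on chromosome 19. ZNF100 had 6.67 and 6.98 FPKM in KO1 and 5.72 and 6.80 FPKM in KO2, against 1.34 and 1.13 FPKM in WT (difference 1.75, adjusted p = 3.72e-06). ZNF493 had 2.38 and 3.27 FPKM in KO1 and 1.90 and 1.92 FPKM in KO2, against 0.0451 and 0.0177 FPKM in WT (difference 1.69, adjusted p = 1.76e-05). ZNF208 averaged 2.23 FPKM in KO1 and 2.14 FPKM in KO2, against 0.0045 FPKM in WT.

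The grouping of called genes was not limited to zinc finger genes. Positions in gene order came from the RefSeq table, which placed 12381 of the tested genes and 292 of the 309 called higher. Only tested genes were placed. A gene below 1 FPKM in both WT libraries was tested only if the knockouts reached 1 FPKM. Silent genes that did not rise are therefore absent, which favours called neighbours. An adjacent tested gene was also called higher for 171 of the 292 (58.6%), against 3.72% of all placed genes. For called zinc finger genes the share was 84.0% (121 of 144). Called genes outside the counted zinc finger symbols and the clustered protocadherins had a share of 26.3% (35 of 133). The called neighbour could be of any family. That share thus includes genes beside a called zinc finger gene or protocadherin, such as LINC00664, CHFR and TAF7. It does not on its own show grouping away from those families. Off chromosome 19 the share over all called-higher genes was 38.8%. Genes called lower had a neighbour called lower in 4 of 94 cases (4.26%), against 1.5% of all placed genes.

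Stretches of 3 or more called-higher genes with at most 2 uncalled tested genes between them numbered 21, on 9 chromosomes, and held 170 of the 292. Their members are named after their values were seen. The longest ran from ZNF432 to ZNF331 on chromosome 19, with 27 of 33 tested genes higher, and from LINC00665 to SIPA1L3 on the same chromosome, with 27 of 30. From ZNF682 to ZNF91 all 12 tested genes were higher, and from ZSCAN5A to ZNF470 all 10. Genes that stayed below the filter in WT and knockouts alike are not part of these counts, which favours full stretches. Off chromosome 19 the zinc finger stretches were ZNF479 to the joined locus of ERV3-1 and ZNF117 on chromosome 7 (10 of 11), ZNF354A to ZNF354C on chromosome 5 (7 of 7), CHFR to ZNF268 on chromosome 12 (6 of 6), ZNF595 to PIGG on chromosome 4 (5 of 6), and RASGEF1A to ZNF32-AS1 (5 of 7) and ZNF25 to LOC441666 (3 of 6) on chromosome 10. The last was ZNF200 to ZNF75A on chromosome 16 (3 of 4), which held ZNF263, which averaged 11.8 FPKM in KO1, 11.9 FPKM in KO2 and 11.9 FPKM in WT between called neighbours.

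Genes outside the counted zinc finger symbols stood inside the zinc finger stretches, and some were higher while others were not called. A stretch begins and ends with a called gene by its definition, so only genes between the ends were counted. Of 15 such genes outside the counted zinc finger symbols, 10 were higher and 5 were not called. The 10 include HKR1, a zinc finger gene whose symbol is outside the counted series. They also include ZNF582-AS1, ZNF667-AS1 and ZNF790-AS1, and antisense reads cannot be told apart here from those of an overlapping zinc finger gene. The 5 were HNRNPF (difference 0.04), a splicing factor at 143 FPKM in WT, PPP2R1A (0.11), a subunit of phosphatase 2A at 103 FPKM in WT, ANKRD20A12P (0.02), HSD17B7P2 (0.19) and LINC00999 (0.43).

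LINC00665, a long noncoding RNA at the edge of its stretch, had 8.37 and 6.55 FPKM in KO1 and 6.82 and 6.32 FPKM in KO2, against 0.385 and 0.470 FPKM in WT (difference 2.48, adjusted p = 4.41e-07). LINC00664, among the genes from ZNF682 to ZNF91, had 9.18 and 8.06 FPKM in KO1 and 7.27 and 7.602 FPKM in KO2, against 0.0958 and 0.203 FPKM in WT (difference 2.97, SE 0.118, adjusted p = 4.93e-08). CHFR, a mitotic checkpoint ubiquitin ligase at the edge of its stretch, averaged 3.997 FPKM in KO1 and 4.33 FPKM in KO2, against 2.34 FPKM in WT (difference 0.62, adjusted p = 0.015). The antisense RNA ZNF582-AS1 differed by 1.69 and ZNF790-AS1 by 1.09, and as the strand of the libraries is not given, their reads cannot be told apart from those of the overlapping zinc finger gene. Of 200 antisense RNAs tested, 8 were higher (4.0%) and 1 lower, of 100 LINC RNAs 6 were higher (6.0%) and 1 lower, and of 242 pseudogenes 22 were higher (9.09%) and 2 lower, against 2.45% higher among all genes. Both WT libraries were below 1 FPKM for 5 of the 6 LINC RNAs and for 9 of the 22 pseudogenes, which therefore entered the tests only through the knockouts, so these shares support nothing on their own.

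Clustered protocadherins, adhesion molecules that give neurons their surface identity, formed the largest stretch without zinc finger genes. They lie on chromosome 5 as an alpha, a beta and a gamma array. Of 22 listed, 16 reached the tests and 15 were higher (93.8%, against 2.45% of all genes), with a median difference of 1.26. For 5 of the 15 both WT libraries were below 1 FPKM. The alpha and gamma arrays are each given as 1 joined locus in the files, since their transcripts share the last exons. The joined PCDHA locus had 17.7 and 23.2 FPKM in KO1 and 17.4 and 21.4 FPKM in KO2, against 6.03 and 6.50 FPKM in WT (difference 1.52, adjusted p = 1.76e-05). The joined PCDHG locus had 40.8 and 38.5 FPKM in KO1 and 36.2 and 45.5 FPKM in KO2, against 11.5 and 12.3 FPKM in WT (difference 1.67, adjusted p = 2.82e-06).

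The beta genes, each with 1 exon, are given singly in the files, though similar copies may share reads. PCDHB2 had 9.39 and 9.77 FPKM in KO1 and 7.91 and 9.72 FPKM in KO2, against 1.03 and 1.53 FPKM in WT (difference 2.16, SE 0.129, adjusted p = 1.75e-06). PCDHB8 (difference 1.42), PCDHB13 (1.35), PCDHB15 (1.32), the pseudogene PCDHB17 (1.27) and PCDHB16 (1.26) followed. PCDHB12 (0.56) and PCDHB14 (0.49) had the smallest called differences. PCDHB11 had 2.23 and 2.40 FPKM in KO1 and 1.51 and 3.52 FPKM in KO2, against 1.78 and 2.22 FPKM in WT, and did not pass (difference 0.16, adjusted p = 0.858). TAF7, a general transcription factor gene that lies between the beta and the gamma array, was also higher, at 67.0 FPKM in KO1 and 68.6 FPKM in KO2 against 44.2 FPKM in WT on average (difference 0.61, adjusted p = 0.00939). Of 15 other cadherins and adhesion genes outside the arrays, 0 were called, and their median was -0.08. With 3.23% of all genes called, 15 genes are too few to set that count apart.

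Promoters of the beta genes are known to share a short conserved element with the letters CGCT. Of 11 called beta genes with a RefSeq promoter, all 11 held GTGGCGCT, against 189 of 9955 tested genes (1.9%) and 1.18% of all 27305 RefSeq promoters, counting both strands (AGCGCCAC on the other). They were poor in CpG, with a median of 7 per 300 bases. The 8 bases were chosen after the promoters were seen. The windows of 6 of them are given in order of the difference between knockouts and WT, largest first, with the 8 bases in capitals, from RefSeq (GRCh38.p14).
PCDHB2, chr5:141094540-141094579, plus strand: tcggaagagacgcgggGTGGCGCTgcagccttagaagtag
PCDHB8, chr5:141177773-141177812, plus strand: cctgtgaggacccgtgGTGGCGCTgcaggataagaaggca
PCDHB13, chr5:141213861-141213900, plus strand: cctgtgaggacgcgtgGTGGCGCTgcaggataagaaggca
PCDHB15, chr5:141245310-141245349, plus strand: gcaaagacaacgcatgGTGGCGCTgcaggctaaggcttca
PCDHB12, chr5:141208639-141208678, plus strand: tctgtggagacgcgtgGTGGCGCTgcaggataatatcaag
PCDHB14, chr5:141223259-141223298, plus strand: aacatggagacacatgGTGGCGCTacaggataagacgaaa

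The element is present in the genes with the largest and the smallest called differences alike. The windows of PCDHB8 and PCDHB13 are nearly the same, so reads may also be shared between these copies.

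**Figure D4:**
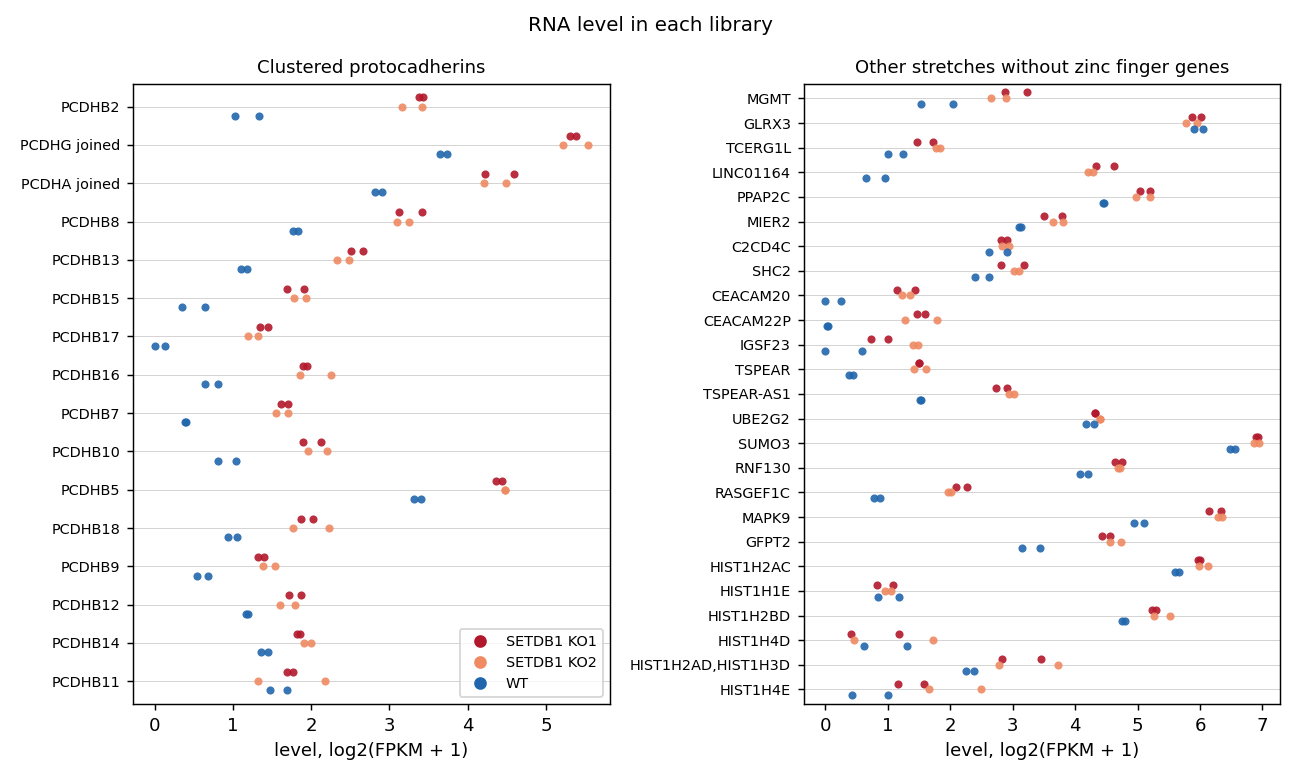
Each point is 1 library, with its level as log2(FPKM + 1) on the x axis, for the clustered protocadherins tested and for the genes of the other stretches without zinc finger genes. The knockout libraries lie to the right of WT for 15 of 16 protocadherins but overlap with WT for PCDHB11, GLRX3, C2CD4C, HIST1H1E and HIST1H4D.

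Other stretches held genes of unrelated kinds, named after their values were seen. On chromosome 5, RNF130, RASGEF1C, MAPK9 and GFPT2 lay side by side and were all higher. MAPK9, the stress kinase JNK2, had 69.7 and 80.1 FPKM in KO1 and 77.5 and 80.4 FPKM in KO2, against 33.4 and 29.7 FPKM in WT (difference 1.26, SE 0.097, adjusted p = 1.03e-05). GFPT2, an enzyme of the hexosamine pathway, had 20.6 and 22.6 FPKM in KO1 and 25.7 and 22.5 FPKM in KO2, against 9.84 and 7.89 FPKM in WT (difference 1.28, adjusted p = 2.33e-05). RNF130 averaged 25.01 FPKM in KO1 and 25.2 FPKM in KO2, against 16.6 FPKM in WT. RASGEF1C averaged 3.54 FPKM in KO1 and 2.98 FPKM in KO2, against 0.781 FPKM in WT.

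On chromosome 10, LINC01164, a long noncoding RNA, had the largest difference of all named genes. It had 19.1 and 23.5 FPKM in KO1 and 18.6 and 17.5 FPKM in KO2, against 0.942 and 0.580 FPKM in WT (difference 3.55, SE 0.124, adjusted p = 1.64e-08). Near it lay MGMT, the enzyme that repairs alkylated guanine in DNA. MGMT had 6.33 and 8.33 FPKM in KO1 and 6.44 and 5.29 FPKM in KO2, against 1.90 and 3.13 FPKM in WT (difference 1.12, SE 0.159, adjusted p = 0.0012). GLRX3, between the 2, had 60.5 FPKM in KO1 and 57.3 FPKM in KO2, against 61.8 FPKM in WT on average, and did not pass (adjusted p = 0.879).

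Shorter stretches lay on chromosomes 19, 21 and 6. CEACAM20, CEACAM22P and IGSF23, of the immunoglobulin superfamily, reached no more than 0.509 FPKM in a WT library, and CEACAM22P had 1.77 and 2.04 FPKM in KO1 and 1.42 and 2.44 FPKM in KO2, against 0.0242 and 0.0285 FPKM in WT. TSPEAR-AS1 on chromosome 21 had 5.67 and 6.49 FPKM in KO1 and 6.69 and 7.08 FPKM in KO2, against 1.88 and 1.85 FPKM in WT (difference 1.38, adjusted p = 1.61e-05), and it overlaps TSPEAR, which differed by 1.10.

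Replication-dependent histone genes, whose main transcripts lack a poly(A) tail, were read here from poly(A)-selected RNA. Of 70 listed, 29 reached the tests, 7 were higher (24.1%, against 2.45% of all genes) and 0 lower, with a median of 0.39. KO1 alone against WT had 3 higher and KO2 alone 7. HIST1H2BC differed by 0.20 in KO1 and by 0.64 in KO2, though no gene was called between the knockouts. HIST2H2BE had 47.9 and 45.5 FPKM in KO1 and 46.6 and 52.7 FPKM in KO2, against 31.0 and 27.8 FPKM in WT (difference 0.69, adjusted p = 0.000919). HIST1H2BG averaged 1.35 FPKM in KO1 and 0.913 FPKM in KO2 and was listed at 0 in both WT libraries. The count in the mean of the knockouts was 4 without WT replicate 2 and 2 without the filter on low values, and these genes are near-identical copies.

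Germline and cancer-testis genes were mostly undetected in all libraries, and 9 of 53 listed reached the tests. Of these 9, 4 were higher (44.4%, against 2.45% of all genes) and 0 lower. ACTL8, AURKC and SYCP2 were below 1 FPKM in both WT libraries and entered the tests only through the knockouts, so the count is a description. ACTL8, an actin-like gene of testis, had 15.5 and 11.2 FPKM in KO1 and 12.5 and 8.75 FPKM in KO2, against 0.163 and 0.0486 FPKM in WT (difference 3.53, SE 0.158, adjusted p = 1.2e-07). AURKC, the Aurora kinase of meiosis, had 5.99 and 5.65 FPKM in KO1 and 7.58 and 6.38 FPKM in KO2, against 0.443 and 0.542 FPKM in WT (difference 2.30, SE 0.120, adjusted p = 5.1e-07). All 4 knockout libraries stood far above WT for both genes.

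SYCP2, a protein of the synaptonemal complex, had 2.79 and 3.16 FPKM in KO1 and 2.66 and 3.47 FPKM in KO2, against 0.712 and 0.546 FPKM in WT (difference 1.30, adjusted p = 9.61e-05). TDRD5, a Tudor domain gene of the piRNA pathway, differed by 0.86 (adjusted p = 0.00847) and lost its call without WT replicate 1 (difference 0.67, adjusted p = 0.0965). Of 14 MAGE genes, a further cancer-testis family, 0 were called (against 3.23% of all genes), with a median of -0.17. The other listed germline genes were not called, most of them because they stayed below the filter in knockouts and WT alike.

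The promoter of ACTL8 shows how few CpG dinucleotides such a gene can have beside those of ZFP30 and MGMT. ACTL8 has 11 CpG in 300 bases and ZFP30 has 12, against a median of 27 over all tested genes, while MGMT has 45. Called-higher genes outside the counted zinc finger symbols had a median of 17 (n = 111). All called-higher genes had 19 (n = 232) and called-lower genes 22 (n = 70). The RefSeq promoters (GRCh38.p14) are given on the strand of the gene with each CG in capitals.
ACTL8, chr1:17755083-17755382, plus strand: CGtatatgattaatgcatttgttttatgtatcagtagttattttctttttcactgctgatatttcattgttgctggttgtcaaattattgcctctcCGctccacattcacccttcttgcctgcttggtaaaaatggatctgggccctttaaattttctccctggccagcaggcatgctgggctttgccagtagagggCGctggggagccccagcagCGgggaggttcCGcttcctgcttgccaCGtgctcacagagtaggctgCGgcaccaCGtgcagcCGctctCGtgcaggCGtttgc
ZFP30, chr19:37656212-37656511, minus strand: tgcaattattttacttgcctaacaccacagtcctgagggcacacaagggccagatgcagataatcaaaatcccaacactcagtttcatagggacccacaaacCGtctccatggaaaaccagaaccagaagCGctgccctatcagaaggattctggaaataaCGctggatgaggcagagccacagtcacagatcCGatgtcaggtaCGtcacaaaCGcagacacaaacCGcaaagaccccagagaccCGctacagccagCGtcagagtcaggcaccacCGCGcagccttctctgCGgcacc
MGMT, chr10:129466991-129467290, plus strand: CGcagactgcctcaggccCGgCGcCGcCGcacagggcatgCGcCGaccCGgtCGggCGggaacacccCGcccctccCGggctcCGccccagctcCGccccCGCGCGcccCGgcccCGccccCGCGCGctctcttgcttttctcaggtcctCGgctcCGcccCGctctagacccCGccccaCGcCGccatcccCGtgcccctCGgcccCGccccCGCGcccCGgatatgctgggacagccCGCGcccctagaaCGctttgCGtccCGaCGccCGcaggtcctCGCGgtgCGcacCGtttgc

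The sequences show both kinds of promoter among genes that were higher in the knockouts.

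Further genes with large rises lay outside these stretches. KATNBL1, a regulator of the microtubule-severing enzyme katanin, had 37.2 and 54.3 FPKM in KO1 and 40.4 and 47.8 FPKM in KO2, against 9.17 and 11.3 FPKM in WT (difference 2.02, SE 0.143, adjusted p = 5.37e-06). MEGF6, a protein with many EGF-like domains, averaged 9.10 FPKM in KO1 and 9.80 FPKM in KO2, against 1.93 FPKM in WT (difference 1.84). XIRP1, an actin-binding protein of striated muscle, differed by 1.78, and SLC39A4, a zinc importer, by 1.78. SPANXD, a sperm protein gene on the X chromosome with near-identical copies, had 28.8 and 42.5 FPKM in KO1 and 28.1 and 50.1 FPKM in KO2, against 9.44 and 9.86 FPKM in WT.

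Imprinted genes, read from 1 parental copy, had 3 of 25 higher (12.0%, against 2.45% of all genes) and 0 lower. FAM50B had 1.48 and 1.39 FPKM in KO1 and 1.86 and 1.36 FPKM in KO2, against 0.0477 and 0 FPKM in WT (adjusted p = 0.000127). FAM50B entered the tests only through the knockouts, so the share of the list is a description. PEG10, a gene derived from a retrotransposon, had 2.16 and 2.12 FPKM in KO1 and 1.78 and 2.58 FPKM in KO2, against 1.17 and 0.835 FPKM in WT (difference 0.66, adjusted p = 0.0266). Its call was lost without KO2 replicate 2 (adjusted p = 0.0779) or WT replicate 2 (0.292). PHLDA2 differed by 0.58 (adjusted p = 0.0223), a call lost without KO2 replicate 1 (0.0589), KO2 replicate 2 (0.0714) or WT replicate 2 (0.311). Of a list of genes derived from endogenous retroviruses or other retroelements, 7 were tested. ERVK13-1 (0.06), ERVMER34-1 (0.09), HHLA3 (0.21), LDOC1 (0.16) and ARC (-0.14) were not called. PEG10 and the joined locus of ERV3-1 and ZNF117 were higher (28.6%, against 2.45% of all genes). The joined locus entered the tests only through the knockouts, so that share is a description. That locus had 2.89 and 2.90 FPKM in KO1 and 2.29 and 2.84 FPKM in KO2, against 0.533 and 0.413 FPKM in WT (difference 1.34), and its reads are not split between the retroviral and the zinc finger gene.

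Placental genes went both ways, with 3 of 15 higher, against 2.45% of all genes, and 1 lower. PSG9, a pregnancy-specific glycoprotein, had 4.51 and 5.01 FPKM in KO1 and 5.87 and 8.67 FPKM in KO2, against 1.26 and 1.77 FPKM in WT (difference 1.45, adjusted p = 9.97e-05). EBI3, a cytokine subunit, differed by 0.66 (adjusted p = 0.00252). INSL4, a placental relaxin-like hormone, had the largest fall of all named genes, with 0.713 and 0.477 FPKM in KO1 and 0.162 and 0 FPKM in KO2, against 3.32 and 2.22 FPKM in WT (difference -1.51, SE 0.160, adjusted p = 0.000114). HBE1, the embryonic globin, had 0.196 and 0.316 FPKM in KO1 and 0.111 and 0 FPKM in KO2, against 2.27 and 1.87 FPKM in WT (difference -1.41, adjusted p = 7.77e-05). Both genes entered the tests through their WT libraries alone, so leaving out either WT library takes them out of the tests.

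Collagens, the fibres of bone and connective matrix, had 4 of 24 lower (16.7%, against 0.777% of all genes) and 0 higher, with a median of -0.19. COL8A1, a short-chain collagen, had 4.32 and 6.75 FPKM in KO1 and 5.12 and 6.65 FPKM in KO2, against 13.5 and 17.99 FPKM in WT (difference -1.32, SE 0.165, adjusted p = 0.000426). COL11A1, a fibrillar collagen of cartilage, had 10.9 and 14.8 FPKM in KO1 and 11.7 and 14.97 FPKM in KO2, against 29.4 and 31.1 FPKM in WT (difference -1.16, adjusted p = 0.000168). COL4A4, of basement membranes, had 1.07 and 1.51 FPKM in KO1 and 1.12 and 1.59 FPKM in KO2, against 3.59 and 3.57 FPKM in WT (difference -0.99, adjusted p = 0.00117). In each of these 3 genes every knockout library was below both WT libraries.

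COL3A1 fell by 0.59 (adjusted p = 0.0456), and its call was lost without KO2 replicate 1 (0.124), KO2 replicate 2 (0.0766), WT replicate 1 (0.0522) or WT replicate 2 (0.351), as well as after quantile normalization (0.0803). COL1A1, the main collagen of bone, had 181 and 202 FPKM in KO1 and 174 and 199 FPKM in KO2, against 241 and 246 FPKM in WT. Its groups did not overlap, but its difference of -0.37 did not pass (adjusted p = 0.0925). COL27A1 (0.28) and COL17A1 (0.22) had the highest values of the list and did not pass.

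Of 38 other matrix genes and matrix enzymes, 3 were lower (7.89%, against 0.777% of all genes) and 2 higher (5.26%, against 2.45%). The list median was -0.18. TNFAIP6, a hyaluronan-binding protein, had 1.71 and 0.780 FPKM in KO1 and 2.27 and 1.72 FPKM in KO2, against 5.46 and 4.84 FPKM in WT (difference -1.26, adjusted p = 0.000686). MFAP5, a microfibril protein, fell by 0.67 (adjusted p = 0.00313). ADAMTS1, a matrix protease, fell by 0.56 (adjusted p = 0.0383), and its call was lost without KO1 replicate 1 (0.0973), KO2 replicate 1 (0.0849), KO2 replicate 2 (0.0741), WT replicate 1 (0.179) or WT replicate 2 (0.204). NID1, which links basement membrane networks, went the other way with 35.2 and 34.4 FPKM in KO1 and 31.8 and 37.3 FPKM in KO2, against 17.8 and 16.9 FPKM in WT (difference 0.96, SE 0.096, adjusted p = 7.07e-05). LUM, a proteoglycan, differed by 0.61 (adjusted p = 0.0357), a call lost without KO2 replicate 1 (0.0755), KO2 replicate 2 (0.115) or WT replicate 1 (0.232).

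Of the lists of bone lineage genes (9 tested) and of target genes of TGF-beta and Hippo signalling (24 tested), 0 were called (against 3.23% of all genes), with medians of -0.12 and -0.10. The summed mesenchymal and bone markers, which include COL1A1, SPARC and FN1, were lower in all 4 knockout libraries than in WT, as given above, and their part in the matrix values was not tested.

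**Figure D5:**
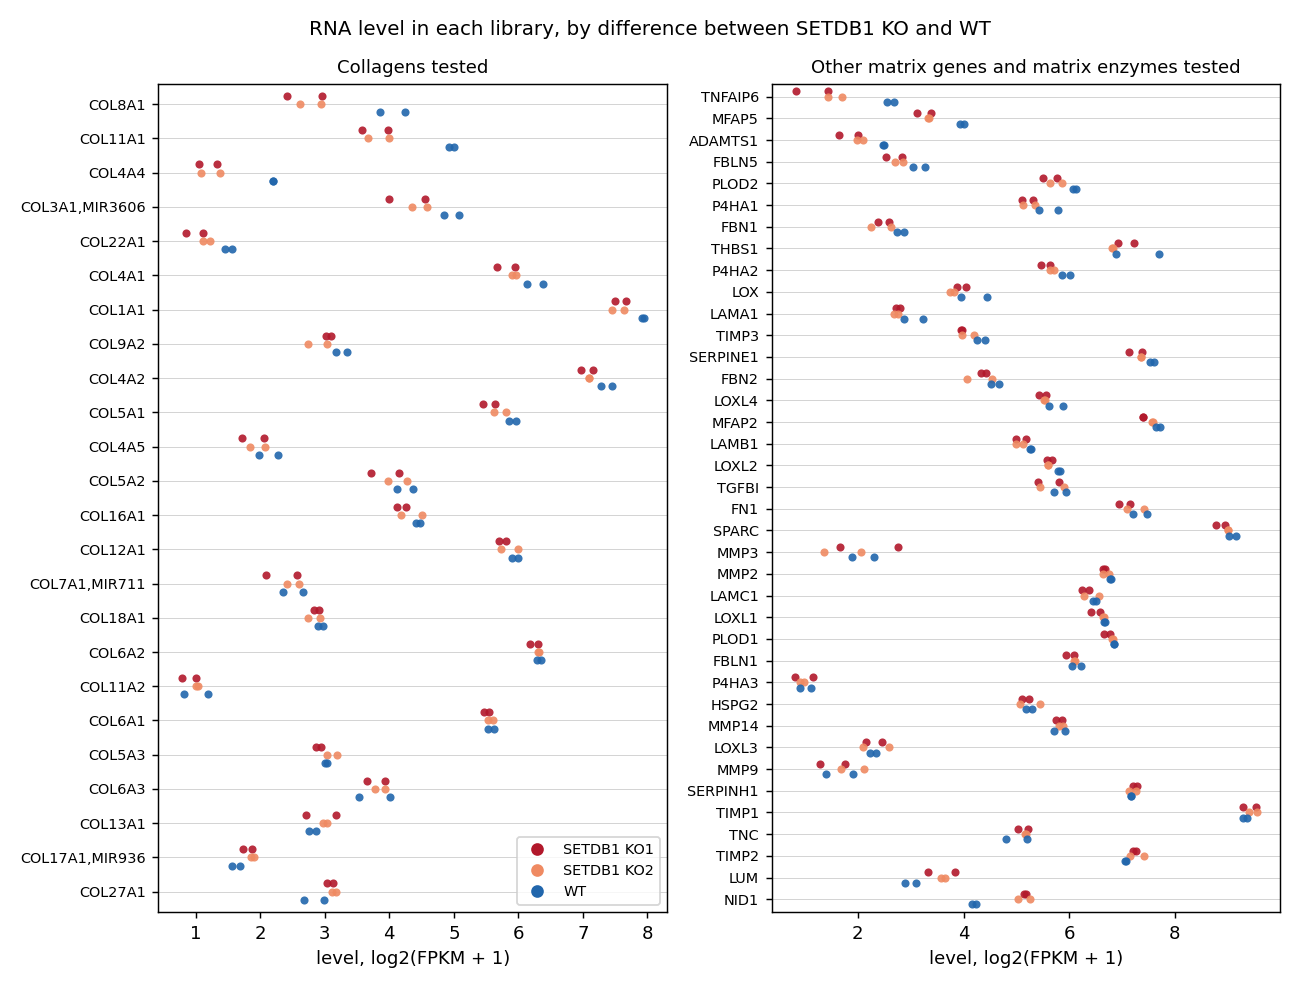
Each point is 1 library, with its level as log2(FPKM + 1) on the x axis, for the 24 collagens and the 38 other matrix genes tested, ordered from the largest fall to the largest rise in the SETDB1 knockouts. COL8A1, COL11A1, COL4A4 and TNFAIP6 stand to the left of WT, NID1 to the right, and most rows overlap or lie close together.

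Other genes with large falls belonged to several kinds. SULT1A1, a phenol sulfotransferase with near-identical copies, had 3.27 and 2.87 FPKM in KO1 and 3.55 and 3.43 FPKM in KO2, against 8.69 and 8.95 FPKM in WT (difference -1.20, SE 0.110, adjusted p = 3.51e-05). NPPB, the B-type natriuretic peptide, had 7.32 and 9.72 FPKM in KO1 and 14.99 and 10.3 FPKM in KO2, against 19.8 and 24.9 FPKM in WT (difference -1.04, adjusted p = 0.00175). FOXS1, a forkhead factor, had 6.36 and 5.19 FPKM in KO1 and 6.69 and 7.63 FPKM in KO2, against 13.4 and 15.8 FPKM in WT (difference -1.07, adjusted p = 0.000156). No knockout library reached the lower WT library in these 3 genes.

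MOB3B (-0.995), CARD16 (-0.94), an inhibitor of caspase-1, the neuronal adhesion gene ASTN1 (-0.89) and the transcriptional coregulator MN1 (-0.87) were lower as well.

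Interferon-stimulated genes, which respond to cytosolic nucleic acids, had 3 of 31 higher (9.68%, against 2.45% of all genes) and 1 lower (3.23%, against 0.777%), with a median of 0.06. OAS3, an oligoadenylate synthetase, had 7.14 and 7.82 FPKM in KO1 and 7.42 and 7.90 FPKM in KO2, against 4.61 and 4.48 FPKM in WT (difference 0.63, adjusted p = 0.00435). LGALS3BP, a secreted glycoprotein, had 90.2 and 93.7 FPKM in KO1 and 89.1 and 92.5 FPKM in KO2, against 59.7 and 63.6 FPKM in WT (difference 0.56, adjusted p = 0.00263). IFITM3, a membrane protein that restricts virus entry, had 213.9 and 166.0 FPKM in KO1 and 209.4 and 194.6 FPKM in KO2, against 141.6 and 140.7 FPKM in WT (difference 0.46, adjusted p = 0.0472). That call was lost without KO1 replicate 1 (0.135), KO2 replicate 1 (0.104), KO2 replicate 2 (0.0802), WT replicate 1 (0.184) or WT replicate 2 (0.248), as well as after centring (0.0891) and with a pseudocount of 0.1 (0.0505). IFI27 had 0.379 and 0.251 FPKM in KO1 and 0.877 and 0.609 FPKM in KO2, against 1.49 and 2.81 FPKM in WT (difference -1.03, adjusted p = 0.00495). IFI27 entered the tests through its WT libraries alone, so the share lower is a description. Of 15 genes of nucleic acid sensing and 16 of class I antigen presentation, 0 were called (against 3.23% of all genes), with medians of 0.00 and -0.02.

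Several growth and stress programs held no call. None of 37 DNA replication genes, 33 mitosis genes, 22 p53 targets, 32 sterol and fatty acid genes, 34 autophagy genes, 31 lysosome genes or 24 HOX genes was called, at list medians between -0.09 and 0.08. Ribosomal protein genes had 0 of 78 called and a median of -0.09. Of all genes 3.23% were called, so lists of these sizes hold few calls in any case. Hypoxia and glycolysis genes had 2 of 34 lower (5.88%, against 0.777% of all genes) and a median of -0.16, with 3 of 34 above 0 and 9 lower at an unadjusted p under 0.05. DDIT4, an inhibitor of the growth kinase mTORC1, had 14.0 and 14.5 FPKM in KO1 and 14.9 and 14.2 FPKM in KO2, against 19.95 and 25.8 FPKM in WT (difference -0.62, adjusted p = 0.00659), and its call was lost without WT replicate 2 (difference -0.45, adjusted p = 0.141). CA12, a carbonic anhydrase of the cell surface, had 4.34 and 3.75 FPKM in KO1 and 3.41 and 3.67 FPKM in KO2, against 6.57 and 5.29 FPKM in WT (difference -0.53, adjusted p = 0.0356). Its call was lost without KO1 replicate 2 (0.0714), KO2 replicate 1 (0.0777), KO2 replicate 2 (0.0686) or WT replicate 1 (0.316).

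KO1 and KO2 were also compared directly. No gene was called (0.0% higher and 0.0% lower in limma), and 206 genes had an unadjusted p under 0.05. The genes with the smallest p included DEFB124, a defensin gene, with 1.21 and 0 FPKM in KO1 and 4.40 and 6.66 FPKM in KO2, and listed at 0 in both WT libraries. The joined locus of PRH1 and PRR4 had 8.86 and 9.35 FPKM in KO1 and 5.42 and 5.10 FPKM in KO2, against 9.83 and 8.72 FPKM in WT. IL13RA2, a decoy receptor for interleukin 13, had 1.94 and 1.85 FPKM in KO1 and 0.414 and 0.675 FPKM in KO2, against 1.04 and 1.04 FPKM in WT. With 2 libraries a group, a p that misses the threshold does not show that the knockouts are alike.

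The called genes were then read in a set of U2OS cells treated with BIX-01294 (BIX), which blocks EHMT1 and EHMT2, other H3K9 methyltransferases, at 10 µM for 12 h. These cells carried a vector or an ATG5 knockdown and shared no library with the SETDB1 set. They have 1 value per group, so no test was made. A 2-fold difference in FPKM + 1 was counted, which low genes reach less easily. The WT median was 1.95 FPKM for all genes called higher and 9.74 FPKM for those called lower, so the shares of the 2 sets are not directly comparable. Of the 309 genes called higher, 199 were counted in vector cells and 204 in knockdown cells, and the shares do not cover the rest. In each they held 89 of the 144 zinc finger genes called higher. Genes called higher in the SETDB1 knockouts were 2-fold higher with BIX in 12 of 199 cases in vector cells (6.03%, against 6.07% of the 10948 genes counted). In knockdown cells they were in 16 of 204 (7.84%, against 7.3% of 10978). Genes called lower were 2-fold lower with BIX in 22 of 81 cases in vector cells (27.2%, against 4.49%) and in 23 of 87 in knockdown cells (26.4%, against 3.89%). They were 2-fold higher with BIX in 8 of 81 cases in vector cells (9.88%, against 6.07%) and in 6 of 87 in knockdown cells (6.9%, against 7.3%).

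Single genes showed both patterns. ZNF274 had 21.5 FPKM with BIX and 10.0 FPKM in mock among vector cells, and 24.5 and 8.93 FPKM among knockdown cells. ACTL8 was at no more than 0.0165 FPKM in these 4 values, and PCDHB2 had 0.375 FPKM with BIX and 1.61 FPKM in mock among vector cells. COL11A1, lower in the SETDB1 knockouts, had 16.6 FPKM with BIX and 36.0 FPKM in mock among vector cells, and 10.0 and 23.2 FPKM among knockdown cells. FOXS1 had 0.605 FPKM with BIX and 9.44 FPKM in mock among vector cells, and 1.05 and 15.4 FPKM among knockdown cells. ADAMTS1 and NPPB, also lower in the SETDB1 knockouts, went the other way. ADAMTS1 had 5.48 FPKM with BIX and 0.594 FPKM in mock among vector cells, and 7.97 and 1.72 FPKM among knockdown cells. NPPB had 3.18 FPKM with BIX and 0.264 FPKM in mock among vector cells, and 16.6 and 8.13 FPKM among knockdown cells. Mock levels of some genes called lower thus differed between the U2OS sets. INSL4 had 0.0518 FPKM in mock vector and 0.4995 FPKM in mock knockdown cells, and COL4A4 0.813 and 2.155 FPKM. SULT1A1 (8.51 and 8.19 FPKM) and ASTN1 (3.90 and 3.85 FPKM) were not low there. The source of these differences was not tested.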

How the data were processed

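Poly(A) RNA was selected with oligo-dT beads, and TruSeq libraries were read as paired ends on an Illumina HiSeq, per the labels' protocols. FastQC, cutadapt, TopHat2 and Cufflinks on hg19 are named in the submitters' processing notes. Their versions and options, the annotation and the strand were not given in the sources used. The authors deposited FPKM per gene, joined here over 26005 rows. Of 441 repeated symbols the entry with the highest mean was kept, 525 joined loci stayed single, and 1871 short noncoding RNA genes were left out by name or RefSeq biotype. A treatment note says that all cells got BIX, but the labels of these 6 libraries say MOCK and were followed.

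FPKM was taken as log2(FPKM + 1), which understates changes of low genes, and fitted on all 12616 genes with limma 3.58.1 (trend, R 4.3.3), with Benjamini-Hochberg adjustment and a threshold of 0.05. The fit was tested on simulated data. Depth came only from steps among values under 0.3 FPKM, so no counting interval is given. Named genes are the 20 largest rises and the 15 largest falls called in the mean and in each knockout, up to 5 called members of a list (10 of zinc finger genes), all of the SETDB1 list, and the 5 smallest p in each direction between knockouts. Some of these genes are not reported here. Members and lists were chosen with earlier results of these data known. Gene order came from the RefSeq table of GRCh38.p14, which matched 23409 symbols. Alternatives were another pseudocount, filters, scalings, a replicate block, handling of repeated and joined entries, and leaving out each library.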

Additional observations from a re-analysis of the deposited data

How the results depend on the processing

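None of the 87 called genes looked at under each alternative changed sign where it was tested. Without a filter on low values, which adds genes to the test, the mean of the knockouts against WT had 219 higher and 59 lower, KO1 152 and 27, and KO2 159 and 27, and 23 of the 87 lost their call. With FPKM of at least 5 the counts were 154 and 47, 119 and 31, and 125 and 22. With the replicate number as a block they were 351 and 155, 283 and 109, and 283 and 84. Deviations of same-numbered libraries correlated at 0.20 (KO1 and KO2), 0.37 (KO1 and WT) and 0.00 (KO2 and WT), so the numbers were not taken as pairs. The ratios of low FPKM values nonetheless fell into 1 window 1% wide for 17.8% to 23.0% of genes in same-numbered libraries, against 6.92% to 8.57% in differently numbered ones, so same-numbered libraries share a property of their values, whose source was not tested. A pseudocount of 0.1, quantile normalization, centring, summed repeats and left-out joined loci gave 281 to 311 higher and 87 to 113 lower.

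Leaving out 1 library gave 214 to 318 higher and 37 to 142 lower in the mean, 182 to 236 and 24 to 76 in KO1, and 152 to 280 and 18 to 87 in KO2, with 0 to 2 higher and 0 to 3 lower between KO1 and KO2. SETDB1 lay between -0.51 and -0.40, and its adjusted p was 0.152 (difference -0.45) without the filter and 0.0619 (-0.45) with FPKM of at least 5. The cause of these moves was not tested. With a pseudocount of 0.1, chosen after seeing the data, 10.6% (vector) and 12.3% (knockdown) of genes called higher were 2-fold lower with BIX, against 2.51% and 3.43% with 1. Over all genes the shares were 8.39% and 8.28% with 0.1, against 4.49% and 3.89% with 1. Absolute depth is unknown.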
